A study of Homo sapiens with 4 samples.

Results

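The 44 genes described here encode factors that cut and polyadenylate nascent RNA and bring RNA polymerase II to a stop: the cleavage and polyadenylation complexes, termination and phosphatase factors, Integrator and the PAF1 complex. They were taken by gene symbol, by a rule that uses no measured value, from the 63677 genes counted, and all 44 passed the filter on low counts that left 15116 genes for testing. The libraries are RNA-seq of HCT116 cells, a human colorectal cancer line. Cells had received an antisense oligonucleotide (ASO) against tandem GAA repeats (anti-GAA ASO, 2 libraries) or a control ASO (2 libraries), with no untreated library. According to the study's methods, the anti-GAA ASO is a gapmer of tandem TTC that directs RNase H to RNAs with GAA repeats, so no single gene is its target. The labels give a transfection of 48 h for both groups and the methods a shorter one. Replicates carry the number 1 or 2 in both groups (232 and 234 in the library names), and whether a number marks one experiment is not given in the sources used here. The study describes the replicates as duplicate, independently performed experiments, so p-values measure the spread between 2 experiments per group.

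Pre-mRNA is cut downstream of the poly(A) signal by the CPSF complex, whose endonuclease is CPSF3, with help from CstF, CFI and CFII, and a poly(A) polymerase then extends the new end. The polymerase goes on past the site until it is slowed by the PP1 phosphatase with its subunit PNUTS (PPP1R10) and the exonuclease XRN2 has degraded the RNA still attached to it. When one of these factors is lost, transcription can run on into the next gene, which is called read-through. Integrator carries a related endonuclease, INTS11, which ends snRNA transcripts and early, unproductive transcripts, and the PAF1 complex travels with the elongating polymerase.

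Counts per library ranged from 10538284 to 17894953, and those on the members from 24 (INTS3) to 5326 (XRN2). Of 8 epithelial markers, 6 had a mean above 1 CPM (a gene's share of its library's counts, scaled with TMM factors), EPCAM among them at 628 to 740 CPM, while VIL1 was at or near 0 and LGR5 at 0 in all 4 libraries. The haematopoietic markers summed to under 1 CPM in every library (0.354 to 0.848), and of the fibroblast markers only COL1A1 was above 1 CPM (10.1 to 14.6), with DCN and LUM at 0. The hepatocyte markers ALB and APOA1 summed to 0.731 to 0.808 CPM in the anti-GAA libraries and 2.30 to 3.0 CPM in the controls, and their part in the results was not tested. In bulk RNA, fewer cells of a type and less RNA per cell cannot be told apart.

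Because the anti-GAA ASO pairs with GAA repeats, the longest perfect GAA run was searched, in any frame, in the sense sequence of each member's longest transcript (GENCODE 44, GRCh38). Only 1 member, RBBP6, held a run of at least 12 nt, and 9 held one of 9 to 11 nt. The 30 nt of transcript around the runs of 4 of these members are shown with the run in capitals. These are the longest runs among the members that lie in annotated coding exons of the longest transcript. FIP1L1 and INTS2 also hold runs of 10 nt, outside the coding sequence annotated for their longest transcripts, and are not shown.
RBBP6: aggacagcAAGAAGAAGAAGAAaaagaagg
LEO1: tgattaagaAAGAAGAAGAAcgtttgaggg
CPSF2: tcaaagatggAGAAGAAGAAattgtttatg
CTR9: tatatccaaaAAGAAGAAGAgaagaaaggg
The RBBP6 run of 14 nt lies at chr16:24572245-24572258 on the plus strand, in the coding part of the last of 18 exons. Those of LEO1 (11 nt, chr15:51949983-51949993, minus strand, exon 10 of 12), CPSF2 (10 nt, chr14:92135449-92135458, plus strand, exon 6 of 16) and CTR9 (10 nt, chr11:10774084-10774093, plus strand, exon 22 of 25) are in coding exons as well. PCF11 (8 nt) and XRN2 (7 nt) hold only shorter runs.

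The first question was whether any of the 44 mRNAs differed between the ASOs. In edgeR's quasi-likelihood test with Benjamini-Hochberg adjustment over all genes tested, none of the 44 members (0 lower, 0 higher) passed an adjusted p of 0.05 (all genes 0% lower and 0% higher), and the smallest adjusted p among them was 0.996. At an unadjusted p under 0.05, 1 member was lower (PCF11) and 0 were higher, against 3.46% and 1.02% of all genes tested. DESeq2, the tool named in the study's methods, called 0 members (all genes 0.0331% lower and 0% higher), with 0 at an unadjusted p under 0.05 (all genes 2.1% lower and 0.662% higher). The members' log2 fold changes (anti-GAA over control) ran from −0.63 (PCF11) to 0.43 (CSTF2), with 18 below 0 (40.9%, all genes 48.4%) and 26 above (59.1%, all genes 51.6%), and their median was 0.063 against 0.013 over all genes tested. With scaling to total counts the members' median was −0.029 and that of all genes −0.081, so the sign of the median rests on the scaling, while it lay above that of all genes under both.

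The spread between libraries of a group was as large as the difference between groups for most members. Over the 44, the median absolute log2 difference between replicates was 0.19 with the control ASO and 0.22 with the anti-GAA ASO, against a median absolute log2 fold change of 0.17. For 29 members the log2 fold change was smaller than the mean of the differences within the groups. These differences ignore the replicate number, and for some members libraries of the same number shared a shift. For SSU72, replicate 2 was lower in both groups, at log2 differences of −0.49 (anti-GAA ASO) and −0.46 (control ASO). For RTF1 the replicates went opposite ways (−0.94 and 0.13). With replicate number as a term, the standard error fell from 0.258 to 0.135 for SSU72 and from 0.314 to 0.199 for RTF1. Both anti-GAA libraries lay above both control libraries for 11 members (25%, against 15.5% of all genes) and below them for 4 members (9.09%, against 16.9%), PCF11, RBBP6, SCAF4 and INTS11. These counts are from TMM-scaled CPM and were not repeated with scaling to total counts. The remaining 29 members had overlapping groups, as did 10223 of the 15116 genes tested. With 2 libraries per group, overlap is nearly the same measure as a change smaller than the mean within-group difference. The 2 counts of 29 are therefore not separate results.

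**Figure D1:**
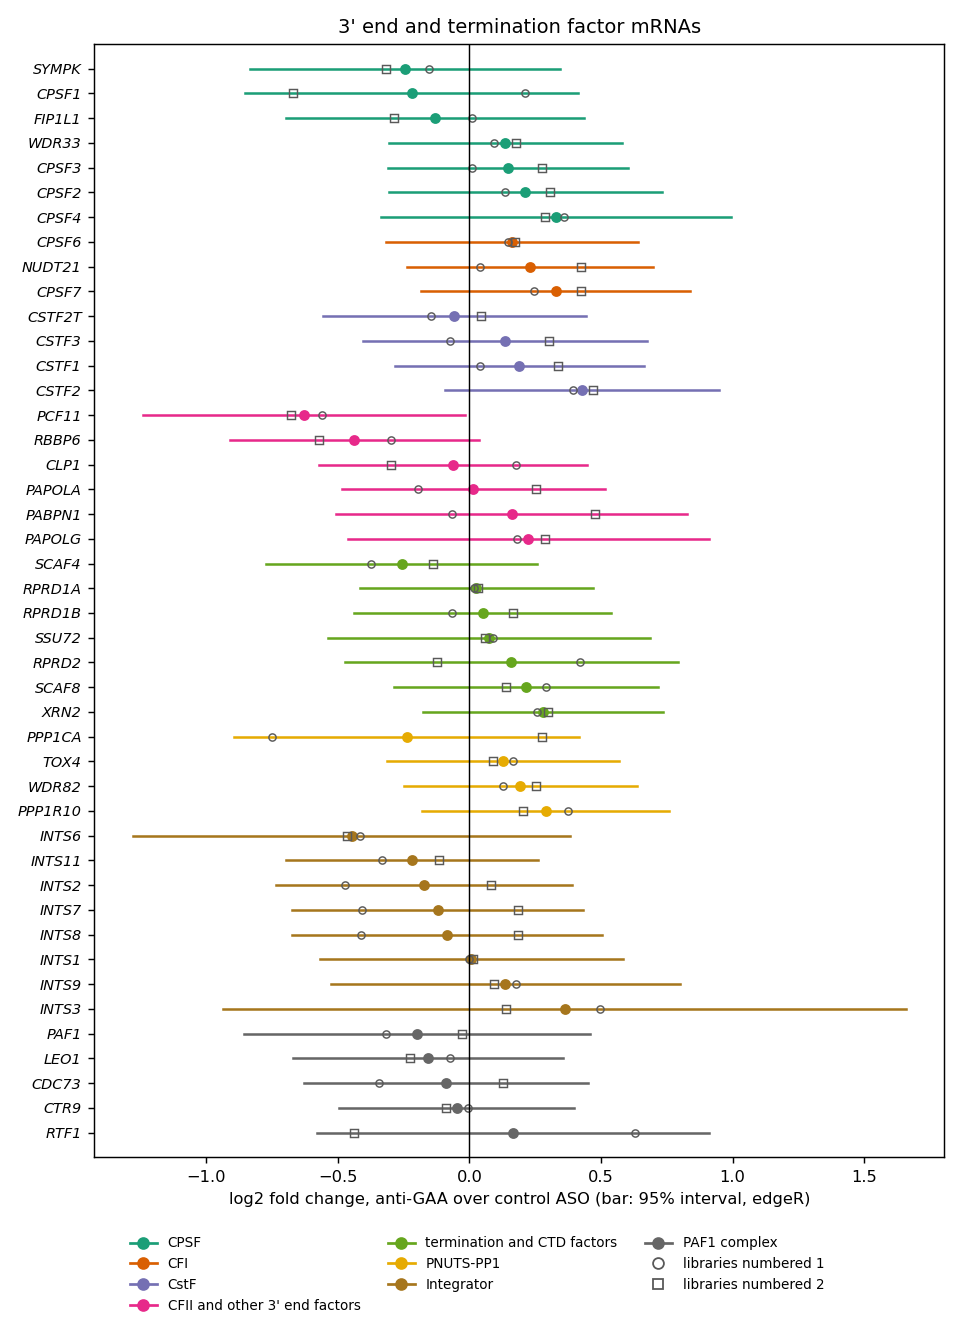
Log2 fold change of each of the 44 members (filled points, coloured by complex) with its 95% interval from edgeR (n = 2 libraries per group), beside the difference in log2 CPM between libraries numbered 1 (open circles) and 2 (open squares). The interval of PCF11 alone lies below 0 as a whole, from −1.24 to −0.018, before adjustment for the number of genes.

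A second question was whether any factor whose loss is known to cause read-through was altered. Of the members, 14 were placed on this list: CPSF1, CPSF3, WDR33, SYMPK, CSTF2, CSTF2T, PCF11, XRN2, SSU72, SCAF4, SCAF8, PPP1R10, WDR82 and INTS11. None passed an adjusted p of 0.05 in edgeR or in DESeq2. At an unadjusted p under 0.05, 1 (PCF11, 7.14% of the 14) was lower and 0 higher in edgeR, against 3.46% and 1.02% of all genes, and 0 passed in DESeq2, against 2.1% and 0.662%. Their median log2 fold change was 0.11, with 6 below 0 (42.9%, all genes 48.4%) and 8 above, and it was 0.012 with scaling to total counts and 0.020 to 0.16 with 1 library left out, lowest without replicate 1 of the anti-GAA ASO. Both anti-GAA libraries lay below both controls for 3 of the 14 (21.4%, all genes 16.9%) and above them for 7 (50%, all genes 15.5%). These shares are from TMM-scaled CPM and were not counted with scaling to total counts, which lowered the median as given above. The 95% interval stayed above a log2 fold change of −1 for 13 of the 14, PCF11 being the exception, whereas over all genes tested 29.8% of intervals reached below −1. All 14 intervals stayed below 1. The width of an interval follows its standard error, whose median was 0.21 over the 14 and 0.29 over all genes tested. The shares of intervals, and those of factors whose groups did not overlap, therefore do not compare the sizes of the changes alone.

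PCF11 is the CFII subunit that binds the C-terminal domain (CTD) of the polymerase and links cleavage to termination. Replicates 1 and 2 had 7.78 and 7.36 CPM with the anti-GAA ASO, while the controls had 11.5 and 11.9 CPM (77 and 131 against 177 and 201 counts). Both anti-GAA libraries were lower than both controls, and replicates were close to each other in either group. By edgeR the log2 fold change was −0.63 with a standard error of 0.26 and an adjusted p of 0.996, or 64.7% of the control level, and the difference was −0.56 in the pair numbered 1 and −0.68 in the pair numbered 2. No gene-wide threshold was passed, and with any 1 of the 4 libraries left out the unadjusted p rose from 0.0451 to between 0.118 and 0.179 in edgeR. PCF11 is known to limit its own mRNA through an early poly(A) site in an intron, and counts per gene do not separate such short transcripts from the full one. In GENCODE 44, 17.0% of its exon bases lie in exons of genes on the opposite strand, PCF11-AS1 among them, and the strand setting of the counting is not given in the sources used here.

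XRN2, the nuclear 5′ to 3′ exonuclease that trails the polymerase, was the member with the most counts. It had 263 and 299 CPM in the anti-GAA libraries and 220 and 243 CPM in the control libraries. The anti-GAA libraries were both above the controls, by less than could be called (log2 fold change 0.28, 95% interval −0.18 to 0.74). CPSF3, the endonuclease that cuts at the poly(A) site, had 125 and 145 CPM against 124 and 120 CPM with the control ASO. Its groups were apart by little, the lower anti-GAA library being next to the higher control one, at a log2 fold change of 0.15 (interval −0.31 to 0.60).

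The other CPSF members of the list did not move together. WDR33, which reads the AAUAAA signal, had 82.3 and 83.7 CPM against 77.1 and 73.9 CPM, a log2 fold change of 0.14 (interval −0.31 to 0.58). CPSF1, the largest CPSF subunit, had 27.2 and 18.5 CPM against 23.5 and 29.5 CPM, and its pairs went opposite ways (0.21 and −0.67). SYMPK (symplekin), the scaffold shared with histone pre-mRNA processing, had 38.1 and 47.6 CPM against 42.4 and 59.3 CPM, a log2 fold change of −0.24 (interval −0.84 to 0.35). For CPSF1 and SYMPK the groups overlapped.

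CSTF2 (CstF-64) binds the GU-rich element after the cleavage site, and CSTF2T is its paralog on chromosome 10. CSTF2 had 62.5 and 53.2 CPM in the anti-GAA libraries and 47.5 and 38.4 CPM in the control libraries, the highest log2 fold change of the members at 0.43 (standard error 0.22, interval −0.092 to 0.95, unadjusted p = 0.0923, adjusted p = 0.996 from edgeR). Both pairs were higher, by 0.39 and 0.47. CSTF2T had 29.7 and 28.1 CPM against 32.9 and 27.2 CPM, a log2 fold change of −0.057 (interval −0.56 to 0.44), with overlapping groups. Reads that match both paralogs could be lost or misplaced, and how many there were is not given in the sources used here.

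SCAF4 and SCAF8 are paralogous CTD-binding proteins that suppress the use of early poly(A) sites. Both are on the read-through list, and whether the loss of SCAF8 alone causes read-through was not examined here. SCAF4 had 17.3 and 18.3 CPM against 22.4 and 20.1 CPM, lower in both anti-GAA libraries, and SCAF8 had 25.9 and 22.6 CPM against 21.1 and 20.6 CPM, higher in both. Their log2 fold changes were −0.26 (interval −0.77 to 0.26) and 0.22 (interval −0.29 to 0.72), and neither passed the test. Of the exon bases of SCAF8, 13.1% are shared on the same strand with TIAM2. SSU72, a CTD phosphatase, had 115 and 82.2 CPM against 108 and 78.8 CPM. Replicate 1 was the higher library in both groups, and the log2 fold change was 0.075.

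PPP1R10 (PNUTS) targets PP1 to the elongation factor SPT5 near the poly(A) site, and WDR82 is its partner in the same complex. PPP1R10 had 43.3 and 40.3 CPM against 33.4 and 35.0 CPM, a log2 fold change of 0.29 (interval −0.18 to 0.76), and WDR82 had 173 and 192 CPM against 158 and 161 CPM, a log2 fold change of 0.19 (interval −0.25 to 0.64). In both the anti-GAA libraries were above the controls. INTS11, the Integrator endonuclease, had 42.3 and 49.3 CPM against 53.3 and 53.5 CPM, lower in both anti-GAA libraries, with a log2 fold change of −0.22 (interval −0.70 to 0.26).

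**Figure D2:**
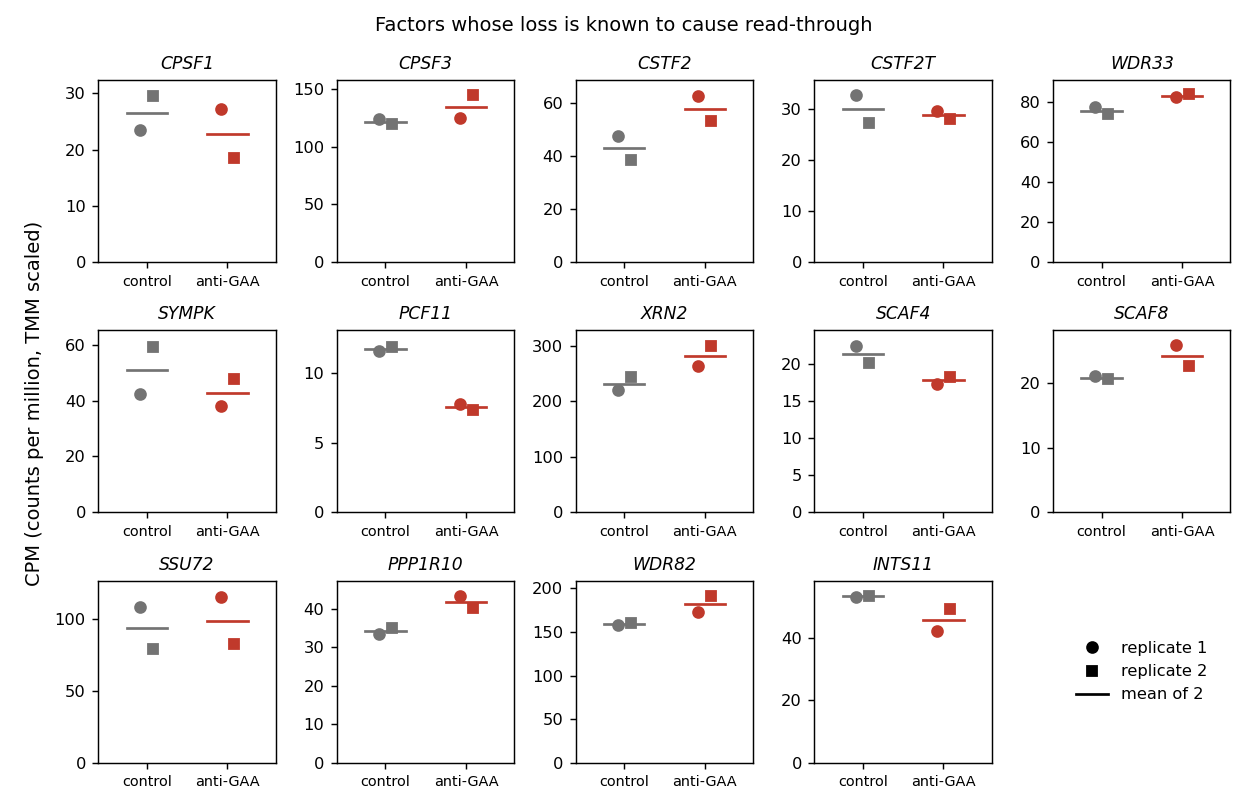
CPM (vertical axes, each from 0) of the 14 factors of the read-through list in the control (grey) and anti-GAA (red) libraries, with replicate 1 as a circle, replicate 2 as a square and the mean of the 2 as a line. PCF11, SCAF4 and INTS11 are lower in both anti-GAA libraries (21.4% of the 14, all genes 16.9%). Higher in both are 7 factors (50%, all genes 15.5%), and the groups of CPSF1, SYMPK, CSTF2T and SSU72 overlap. These shares hold for TMM-scaled CPM and were not counted with scaling to total counts.

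The remaining cleavage and polyadenylation members were next considered by complex. CFI, which binds UGUA upstream of the poly(A) site and favours distal sites, was the complex in which no member was below 0. NUDT21 had 141 and 158 CPM against 138 and 118 CPM (log2 fold change 0.23), CPSF7 61.3 and 55.6 CPM against 51.8 and 41.4 CPM (0.33, standard error 0.21, unadjusted p = 0.172, adjusted p = 0.996 from edgeR) and CPSF6 149 and 176 CPM against 134 and 156 CPM (0.16). For NUDT21 and CPSF7 the groups did not overlap, and for CPSF6 they did. With 3 members, none of which passed the test, no direction was called for the complex.

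Of the 7 CPSF members, 3 were below 0 and 4 above, from −0.24 (SYMPK) to 0.33 (CPSF4), with a median of 0.14. CPSF4, the zinc finger subunit that contacts the signal beside WDR33, had 79.7 and 53.7 CPM against 62.1 and 44 CPM, so that replicate 1 exceeded replicate 2 in both groups by more than the ASOs differed. Its log2 fold change ranged from 0.025 without replicate 1 of the anti-GAA ASO to 0.59 without replicate 2 of it, and that of CPSF2 from 0.054 to 0.39 with 1 library left out. CPSF2, a catalytically inactive relative of CPSF3, was at 0.21 and FIP1L1, which recruits the poly(A) polymerase, at −0.13, both with overlapping groups. Within CstF, CSTF1 was at a log2 fold change of 0.19 with groups apart and CSTF3, the scaffold of the complex, at 0.13 with overlapping groups.

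RBBP6, a large RING finger protein that activates the cleavage complex, is the member with the long GAA run. It had 51.8 and 48.0 CPM in the anti-GAA libraries and 63.8 and 71.4 CPM in the control libraries, lower in both anti-GAA libraries. Its log2 fold change was −0.44 (standard error 0.20, 95% interval −0.91 to 0.035, unadjusted p = 0.0645, adjusted p = 0.996 from edgeR), with −0.30 and −0.57 in the pairs. With scaling to total counts, which also moved the median of all genes to −0.081, its unadjusted p from edgeR was 0.0347 at a log2 fold change of −0.54. The unadjusted p was 0.114 in DESeq2, and in edgeR 0.115 with the length and GC offsets and 0.00923 with the replicate block. With 1 library left out, the log2 fold change of RBBP6 ran from −0.53 to −0.35. Among the other processing factors, CLP1 (the RNA kinase of CFII, −0.062), PAPOLA (the main nuclear poly(A) polymerase, 0.015), PAPOLG (its paralog, 0.22) and PABPN1 (the nuclear poly(A)-binding protein, 0.16) had overlapping groups. In PABPN1 the control libraries alone spanned 56.4 to 95.3 CPM, and 39.3% of its exon bases are shared on the same strand with the read-through gene BCL2L2-PABPN1.

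The RPRD proteins bind the CTD, and none of them passed the test. RPRD1A had 82.1 and 84.5 CPM against 81.1 and 82.6 CPM, a log2 fold change of 0.026 with an interval from −0.42 to 0.47. RPRD1B was at 0.051 and RPRD2 at 0.16 (interval −0.47 to 0.79, pairs at 0.42 and −0.12), with overlapping groups. In the PNUTS complex, TOX4, its DNA-binding subunit, was at 0.13 with groups apart. PPP1CA, the catalytic subunit, had 33.2 and 46.6 CPM against 56.0 and 38.5 CPM, and its pairs were at −0.75 and 0.28.

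Integrator and the PAF1 complex were the complexes with most members below 0, 5 of 8 and 4 of 5, with medians of −0.10 and −0.088. INTS6 had the lowest log2 fold change in Integrator at −0.45 (interval −1.28 to 0.38), with 17.9 and 10.7 CPM against 23.9 and 14.9 CPM. Replicate 1 was the higher in both groups, and the pairs were at −0.42 and −0.46. Its log2 fold change was −0.23 with the length and GC offsets and −0.85 to −0.071 with 1 library left out, the ends being without replicate 1 of the anti-GAA ASO and without replicate 1 of the control ASO. INTS2 (−0.17), INTS7 (−0.12) and INTS8 (−0.084) were below 0 in the pair numbered 1 only, with −0.47, −0.41 and −0.41 in pair 1 and 0.080, 0.19 and 0.19 in pair 2. INTS1, the largest scaffold, was at 0.0077 and INTS9, the partner of INTS11, at 0.14. INTS3 rested on 24 to 39 counts per library, and its interval of −0.93 to 1.66 leaves the direction undetermined.

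In the PAF1 complex, CTR9, the scaffold, had 161 and 169 CPM against 162 and 180 CPM, a log2 fold change of −0.049 (interval −0.49 to 0.40). PAF1 was at −0.20, LEO1 at −0.16 and CDC73 at −0.088, all with overlapping groups. RTF1, which recruits factors for histone H2B ubiquitination, had 151 and 78.8 CPM in the anti-GAA libraries and 97.8 and 107 CPM in the control libraries. The control libraries lay between the anti-GAA ones, so that the pairs were at 0.63 and −0.44.

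Across the members, 19 (43.2%, all genes 31.8%) were higher with the anti-GAA ASO in both pairs of libraries, 9 (20.5%, all genes 30%) were lower in both, and 16 went opposite ways. Among the 14 factors of the read-through list, 8 were higher in both pairs, 4 lower in both (SYMPK, PCF11, SCAF4 and INTS11) and 2 opposite (CPSF1 and CSTF2T). The median over the 44 was 0.015 in pair 1 and 0.13 in pair 2, against −0.0041 and 0.020 over all genes. All differences within pairs use TMM scaling only.

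**Figure D3:**
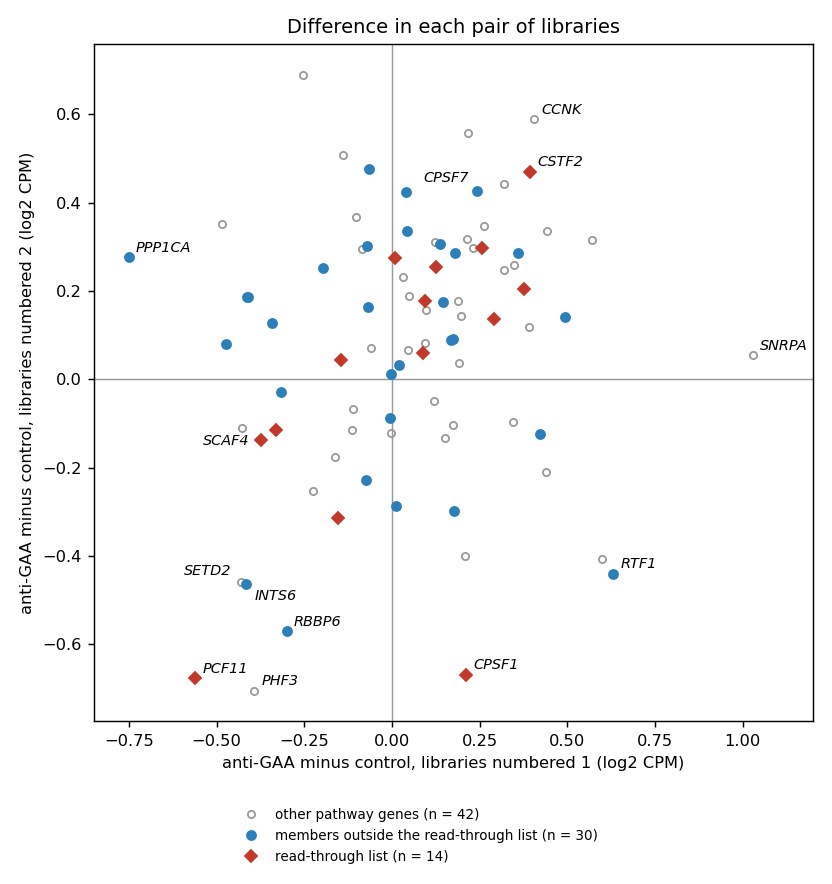
Difference in log2 CPM between anti-GAA and control libraries numbered 1 (horizontal axis) and 2 (vertical axis) for the read-through list (red diamonds), the other members (blue) and other genes of the pathway (open grey). PCF11, RBBP6 and INTS6 lie in the lower left, CSTF2 in the upper right, and CPSF1, PPP1CA and RTF1 where the pairs have opposite signs.

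Levels per length were compared as CPM per kb of exon, with the exons of all GENCODE 44 transcripts of a gene joined, which understates genes with long alternative exons. XRN2 had the highest level, 64.5 to 87.8 CPM per kb over the 4 libraries, followed by CPSF3 (32.6 to 39.4), whose ranges did not overlap. WDR82 (27.7 to 33.5) and CTR9 (27.9 to 31.2) came next, and these 2 did not differ beyond their spread. At the low end were PCF11 (0.740 to 1.19), INTS6 (0.421 to 0.938) and INTS3 (0.135 to 0.347), of which PCF11 and INTS6 overlapped. Within CPSF, FIP1L1 was the lowest at 1.31 to 1.75, below the other 6 members in every library. CSTF2 was above CSTF2T in every library, at 14.0 to 22.8 against 6.63 to 8.0 CPM per kb.

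**Figure D4:**
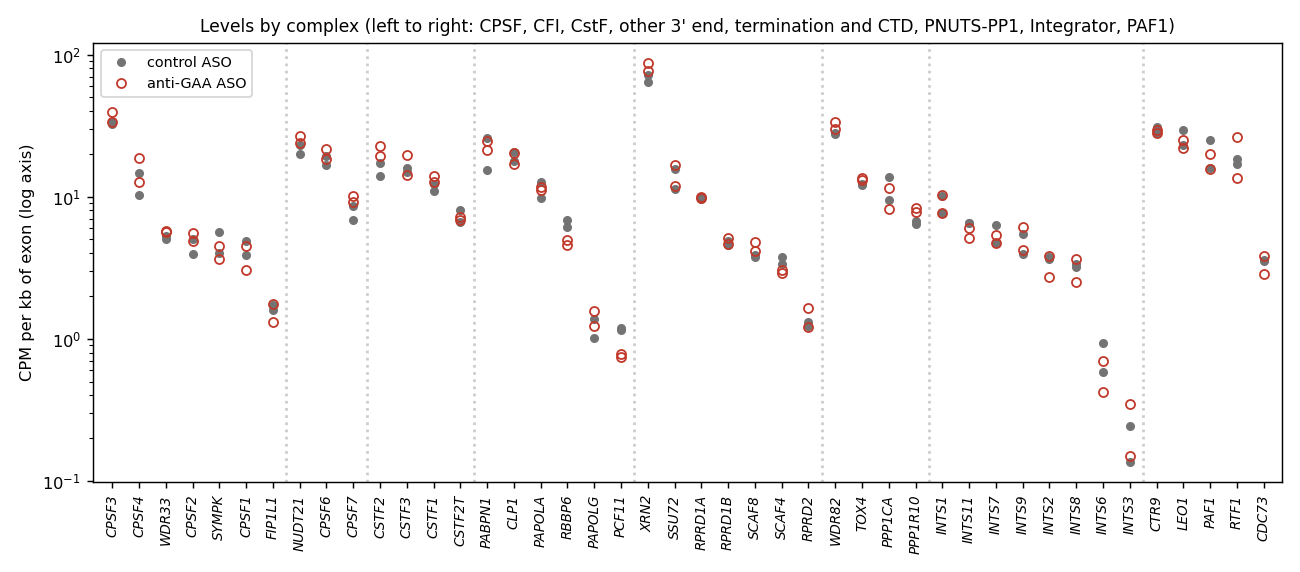
Level of each member in CPM per kb of exon (log axis) in the control (filled grey) and anti-GAA (open red) libraries, 2 points per group, ordered by level within each complex. Levels span from INTS3, under 0.35, to XRN2, over 64, and the points of the 2 groups interleave for most members.

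To place the members in their pathway, 42 other genes of Integrator, the polymerase, its elongation and pausing factors, U1 snRNP and histone 3′ processing were taken as a list. None was called at an adjusted p under 0.05 in edgeR or DESeq2 (all genes 0% lower and 0% higher in edgeR), and 1 (PHF3, 2.38% of the list) was lower at an unadjusted p under 0.05 in edgeR and 0 higher, against 3.46% and 1.02% of all genes. Their median log2 fold change was 0.13, with 32 above 0 (76.2%, all genes 51.6%) and 10 below (23.8%, all genes 48.4%), and it ranged from 0.016 to 0.23 when 1 library was left out, lowest without replicate 1 of the anti-GAA ASO and highest without replicate 1 of the control ASO.

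PHF3, a CTD-binding protein that competes with an elongation factor, had 18.9 and 18.8 CPM against 24.8 and 30.8 CPM (log2 fold change −0.56, standard error 0.22, adjusted p = 0.996 from edgeR). SETD2, the H3K36 methyltransferase that rides on the polymerase, had 38.8 and 40 CPM against 52.3 and 55.1 CPM (−0.45, interval −0.91 to 0.018). It is, besides RBBP6, the only gene on either list whose run reached 12 nt, which spans an exon junction and so is whole in the spliced RNA only. SNRPA, a protein of U1 snRNP, had the highest log2 fold change of the list at 0.54 (interval −0.080 to 1.16), with 177 and 126 CPM against 86.6 and 121 CPM. Its groups were apart, but the pairs were at 1.03 and 0.054. CCNK, the cyclin partner of CDK12, had 28.8 and 40.2 CPM against 21.7 and 26.7 CPM, higher in both anti-GAA libraries, with a log2 fold change of 0.51 (interval −0.078 to 1.11), and 59.5% of its exon bases lie in exons of a gene on the opposite strand. POLR2A, the largest subunit of the polymerase, had 66.0 and 89.4 CPM against 44.4 and 71.8 CPM, with overlapping groups and a log2 fold change of 0.42 (interval −0.27 to 1.11). Replicate 2 was the higher library in both groups, and the pairs were at 0.57 and 0.32.

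Finally, the members were grouped by their longest GAA run, a feature that their choice did not use. Of the 34 members with a run under 9 nt, 12 (35.3%) were below 0 and the median log2 fold change was 0.10, against 46.0% and 0.030 over 11787 genes of that class. The 9 members with 9 to 11 nt had 5 (55.6%) below 0 and a median of −0.049, against 55.8% and −0.037 over 2590 genes. RBBP6, with 14 nt, was at −0.44, where the median over 374 genes with at least 12 nt was −0.16 and 71.4% were below 0. Across the 44 members, Spearman's rho between run length and log2 fold change was −0.25, against 0.32 for the mean level per kb and −0.14 for transcript length, all descriptions over genes of the same 4 libraries. PCF11, the lowest member, has a run of 8 nt.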

How the data were processed

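RNA-seq of 4 HCT116 libraries was analysed, 2 per ASO, with total counts of 10538284 to 17894953. The authors trimmed and aligned the reads to hg19 with STAR and counted them on Ensembl genes with featureCounts (strand setting and Ensembl release not given in the sources used here), and the values they deposited are raw counts per gene. For the library kit, stranded mRNA is named in the methods and total RNA in the labels. No column of per-sample values was left unused (0). Precision is limited by 2 libraries per group.

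Genes kept by filterByExpr were scaled by TMM and tested in R 4.3.3 with edgeR 4.0.16 (quasi-likelihood test, ASO as the only term, Benjamini-Hochberg over 15116 genes, threshold 0.05). A check on simulated counts was run before, with a pass condition for the fit with the replicate block only. Standard errors and 95% intervals come from the F statistic. Differences per pair are in log2 CPM (prior count 2). Alternatives used DESeq2 1.42.0, other scalings and filters, the replicate block, offsets for length and GC content (mgcv 1.9.3) and each library left out. Symbols, exons and transcripts came from GENCODE 44 on GRCh38 by Ensembl identifier (52181 of 63677 genes), with no position taken from hg19. Figures were drawn with matplotlib 3.10.9.

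Members, lists and tests were chosen with earlier results of these data known. Values per library are given for the read-through list, the 6 members with the smallest unadjusted p, any member or pathway gene past an adjusted p of 0.05 with or without the block (there was none) and members with a run of at least 12 nt. Others named with values were chosen after their values had been seen. The 42 other pathway genes are those left of a longer list after 2 genes that are not reported here.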

Additional observations from a re-analysis of the deposited data

How the results depend on the processing

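Under the 13 alternatives the number of members called stayed at 0, as did that of the read-through list, and with an unadjusted p under 0.05 as the threshold it was 1. Over all genes, the 0 calls became 5 with DESeq2, 116 with no filter on low counts, 258 (207 lower, 51 higher) with the replicate block, 295 with the block and the length and GC offsets, 58 with DESeq2 and the block (chosen after seeing the data), and 0 to 18 when 1 library was left out, 18 without control ASO replicate 1 and 5 without anti-GAA ASO replicate 2. Whether libraries of the same number share an experiment is not given in the sources used here. The common dispersion in edgeR, a measure of spread between libraries, was 0.055 without the block and 0.015 with it. Deviations from the group means correlated at r = 0.564 between libraries of the same number across genes, which are not independent replicates. Under the replicate block, with 1 residual degree of freedom left, an unadjusted p under 0.05 was reached by 3 members below 0 and 3 above (PCF11, RBBP6, INTS6, and CPSF4, CPSF7, CSTF2), against 9.7% and 6.86% of all genes, and the smallest adjusted p was 0.142 (PCF11, edgeR). The block changed no call among the members and the pathway genes.

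The members' median moved to −0.029 with scaling to total counts (0.027 to 0.094 with 1 library left out). That of the read-through list, 0.11, was 0.12 with DESeq2 and with its size factors, 0.012 with scaling to total counts, 0.093 with no filter, 0.097 with the mean CPM filter, 0.13 with the length and GC offsets, alone and with the block, 0.11 with DESeq2 and the block, and 0.020 to 0.16 with 1 library left out. That of the other pathway genes, 0.13, was 0.14 with DESeq2, with its size factors, with the length and GC offsets and with these and the block, 0.11 with no filter, 0.12 with the mean CPM filter, 0.034 with scaling to total counts and 0.016 to 0.23 with 1 library left out. The class of members whose GAA run reached 12 nt moved from −0.44 (RBBP6 only) to 0.10 over the gene body with introns, where it holds 4 members.

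The sign changed in at least 1 alternative for 24 of the 44 members, none of them called. With scaling to total counts this held for PAPOLA (−0.073), SSU72 (−0.019), RPRD1A (−0.068), RPRD1B (−0.040) and INTS1 (−0.087), which was also below 0 with no filter (−0.0045) and with the mean CPM filter (−0.0053). With the length and GC offsets it held for FIP1L1 (0.053, and 0.037 with the block), INTS8 (0.00067) and CDC73 (0.076, and 0.067 with the block). Leaving out 1 library gave CPSF1 −0.51 to 0.041, CSTF2T −0.18 to 0.076, CSTF3 −0.12 to 0.36, FIP1L1 −0.34 to 0.069, SYMPK −0.48 to 0.025, CLP1 −0.19 to 0.065, PAPOLA −0.16 to 0.21, PABPN1 −0.16 to 0.58, SSU72 −0.18 to 0.32, RPRD1B −0.015 to 0.12, RPRD2 −0.063 to 0.37 and PPP1CA −0.50 to 0.045. It gave INTS1 −0.21 to 0.23, INTS2 −0.44 to 0.056, INTS3 −0.32 to 0.88, INTS7 −0.30 to 0.086, INTS8 −0.38 to 0.16, INTS9 −0.15 to 0.39, PAF1 −0.48 to 0.15, CTR9 −0.13 to 0.038, RTF1 −0.37 to 0.57, CDC73 −0.32 to 0.12 and LEO1 −0.33 to 0.030. The cause was not tested. A left-out library leaves 1 in its group, assumed to vary like the other group.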

Other observations

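The GAA run was also searched over the whole gene with its introns, a choice made after the data had been seen. Runs of at least 12 nt were then found in 4 members (9.09%, against 11.3% of all genes tested), RBBP6, RPRD1B (16 nt), RPRD2 (14 nt) and PPP1R10 (12 nt), the last 3 in introns. The log2 fold changes of these 3 were 0.051, 0.16 and 0.29, none of them below 0, while 68.4% of the 1667 genes with such a run were below 0, with a median of −0.14. Among the other genes of the pathway, SRRT (16 nt), CDK12 (13 nt) and INTS4 (12 nt) hold intronic runs of this length, and 1 of the 3, CDK12 at −0.29, was below 0. With so few genes, no difference from the rest was tested.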
